A study of Mus musculus with 9 samples.

Results

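The renin-angiotensin system and the membrane peptidases of the proximal tubule brush border were followed in mouse kidney through 8 genes chosen by name: Ren1, Agt, Ace, Agtr1a, Mme, Enpep, Anpep and Dpp4. All 8 were found, once each, among the 34310 genes of the deposited table, and all 8 were among the 15015 genes tested. Poly(A) RNA of whole kidney tissue had been sequenced from 9 mice in 3 groups of 3. Controls were given saline, a second group bacterial endotoxin (lipopolysaccharide, LPS), which is used to model sepsis, and the last group that endotoxin plus the actin-binding peptide thymosin β4 (LPS+Tβ4). The labels give no dose, time after injection, route, strain, sex or age for any group. The series title names sepsis-associated acute kidney injury as the model and thymosin β4 as the agent studied against it.

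Renin, an aspartic protease stored and released by juxtaglomerular cells of the afferent arteriole, cuts angiotensinogen to angiotensin I. Angiotensin-converting enzyme (Ace) on endothelium and on the proximal tubule brush border turns that into angiotensin II, which constricts vessels and raises sodium reabsorption through the type 1 receptor Agtr1a. In the tubule lumen the ectopeptidases glutamyl aminopeptidase (Enpep, aminopeptidase A), alanyl aminopeptidase (Anpep, aminopeptidase N), neprilysin (Mme) and dipeptidyl peptidase 4 (Dpp4) trim angiotensins, kinins and other filtered peptides, and podocytes carry some of these enzymes too. Most circulating angiotensinogen comes from liver, and the proximal tubule makes its own. In other parts of the body astrocytes make it as well.

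In GRCm38 coordinates Ren1 (ENSMUSG00000070645) lies on chromosome 1 at 133350510 to 133360325, plus strand, and Agt (ENSMUSG00000031980) on chromosome 8 at 124556534 to 124569706, minus strand. Ace (ENSMUSG00000020681) is on chromosome 11 at 105967945 to 105989964, plus strand, and Agtr1a (ENSMUSG00000049115) on chromosome 13 at 30336441 to 30382867, plus strand. Mme (ENSMUSG00000027820) and Enpep (ENSMUSG00000028024) share chromosome 3, at 63241537 to 63381623 on the plus strand and 129269175 to 129332720 on the minus strand. Anpep (ENSMUSG00000039062) is on chromosome 7 at 79821803 to 79848210 and Dpp4 (ENSMUSG00000035000) on chromosome 2 at 62330073 to 62412231, both on the minus strand. All are protein-coding. Agtr1a overlaps Gm48161 on the same strand over 6825 bases, and that gene held 1307 counts over the 9 libraries against 13262 for Agtr1a, so some reads could belong to either. The genes overlapping Ace, Enpep, Anpep and Dpp4 held at most 85 counts each. Some mouse strains carry Ren2, a near-identical copy of Ren1, and with the strain not given, reads of such a copy cannot be told apart from those of Ren1.

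Promoter windows of 300 bases (250 before to 50 after the start site, RefSeq, GRCm38.p6) were found for 7 of the 8 genes, all but Agtr1a. The windows of 4 genes are shown because their RNA behaved differently from one another: Ren1 and Agt, which did not pass in any comparison, and Enpep and Dpp4, the members whose LPS+Tβ4 libraries all lay above their LPS libraries. Capitals mark TATAAA, on either strand, and TTCNNNGAA, the consensus for STAT factors.
Ren1 promoter, chr1:133350424-133350723, plus strand: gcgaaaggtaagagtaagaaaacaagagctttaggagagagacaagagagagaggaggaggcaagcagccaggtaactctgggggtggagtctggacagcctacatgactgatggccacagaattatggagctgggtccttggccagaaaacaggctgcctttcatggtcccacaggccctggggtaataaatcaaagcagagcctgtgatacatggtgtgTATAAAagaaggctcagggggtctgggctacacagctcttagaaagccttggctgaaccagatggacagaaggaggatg
Agt promoter, chr8:124569657-124569956, minus strand: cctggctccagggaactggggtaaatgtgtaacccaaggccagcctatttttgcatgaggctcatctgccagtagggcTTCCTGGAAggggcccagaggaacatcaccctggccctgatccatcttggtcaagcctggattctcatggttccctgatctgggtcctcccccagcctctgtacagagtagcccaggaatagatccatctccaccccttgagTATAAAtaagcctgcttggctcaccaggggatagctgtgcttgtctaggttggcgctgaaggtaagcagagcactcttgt
Enpep promoter, chr3:129332700-129332999, minus strand: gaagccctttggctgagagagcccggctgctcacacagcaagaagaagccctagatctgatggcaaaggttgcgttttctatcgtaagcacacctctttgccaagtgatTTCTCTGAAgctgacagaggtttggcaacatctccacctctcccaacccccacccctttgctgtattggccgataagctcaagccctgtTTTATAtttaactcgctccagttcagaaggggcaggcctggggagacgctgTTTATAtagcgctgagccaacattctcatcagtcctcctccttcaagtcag
Dpp4 promoter, chr2:62412182-62412481, minus strand: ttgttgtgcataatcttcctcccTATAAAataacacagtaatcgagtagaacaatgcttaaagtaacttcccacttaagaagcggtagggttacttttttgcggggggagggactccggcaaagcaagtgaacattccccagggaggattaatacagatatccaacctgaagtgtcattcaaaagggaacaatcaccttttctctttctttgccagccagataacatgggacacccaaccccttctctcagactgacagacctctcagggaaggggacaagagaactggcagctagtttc
TATAAA began 29 bases before the start site in Ren1, 30 bases before it in Agt and 227 bases before it in Dpp4. On the opposite strand the match began 31 bases before the start site in 1 window of Ace, and 52 and 1 bases before it in Enpep. TTCNNNGAA occurred in Agt, Enpep and one window of Mme. Counting every alternative start, 5 of 10 windows of the members held TATAAA and 3 of 10 held TTCNNNGAA, against 13.6% and 8.3% of all 32851 promoter windows. None of the 10 held the HNF1 half-site GTTAAT (7.1% of all windows), the HNF4 sequence CAAAGTCCA (0.475%), the cyclic AMP element TGACGTCA (1.79%) or its half-site TGACG (20.8%, which it contains), the NF-kB consensus (0.411%) or the C/EBP sequence TTGCNNCAA (2.08%), all searched on both strands. These matches are descriptions of the letters in the windows.

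Library totals ranged from 53 to 62 M counts, and the members were read 322 to 12736 times per library, so counting error was small beside the spread between mice. The labels give 3 mice per group and 1 library for each. The libraries stood apart in tissue content. Summed CPM (counts relative to library size, scaled by TMM) of 5 urothelial markers were 2.13, 87 and 74.5 in saline, 55.1, 46.2 and 0.93 in LPS and 1.03, 0.758 and 65.9 in LPS+Tβ4, so that each group held libraries rich and poor in transcripts of the lining of the renal pelvis. Summed CPM of 16 proximal tubule markers ran from 31700 to 32900 in saline, from 6050 to 21700 in LPS and from 5890 to 14500 in LPS+Tβ4, so the tissue carried the markers of the segment in question. In whole tissue, fewer cells of a type and less RNA per cell cannot be told apart.

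Levels between genes were compared in FPKM, the authors' values scaled for transcript length and library size. In saline kidney the order ran from Anpep (28.5 ± 3.16, SD, n = 3), Ace (26.6 ± 8.83) and Enpep (26.2 ± 4.02) through Ren1 (22.3 ± 2.84) and Agt (18.4 ± 4.22) to Agtr1a (13.4 ± 1.77), Dpp4 (12.2 ± 0.754) and Mme (10.4 ± 1.96). Every pair of neighbours in that order had overlapping ranges. In LPS kidney Agt (24.7 ± 11.4) and Ren1 (21.8 ± 17.2) stood at the top and Mme (3.46 ± 0.857) and Dpp4 (2.65 ± 0.212) at the bottom. Between them ran Ace (12.2 ± 4.56), Enpep (8.8 ± 3.38), Anpep (8.5 ± 4.57) and Agtr1a (4.33 ± 2.33), again with overlapping neighbours throughout. With LPS+Tβ4 the top pair was the same, Agt at 37.5 ± 12.3 and Ren1 at 33.4 ± 14.6, and their ranges overlapped that of Enpep for Ren1 but not for Agt. Enpep (17.4 ± 2.35) came next and lay above Ace (10.6 ± 2.78) without overlap, followed by Anpep (8.36 ± 2.01), Dpp4 (7.01 ± 1.23), Agtr1a (6.38 ± 1.19) and Mme (4.18 ± 1.34). In that stretch neighbours overlapped except Agtr1a and Mme.

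**Figure D1:**
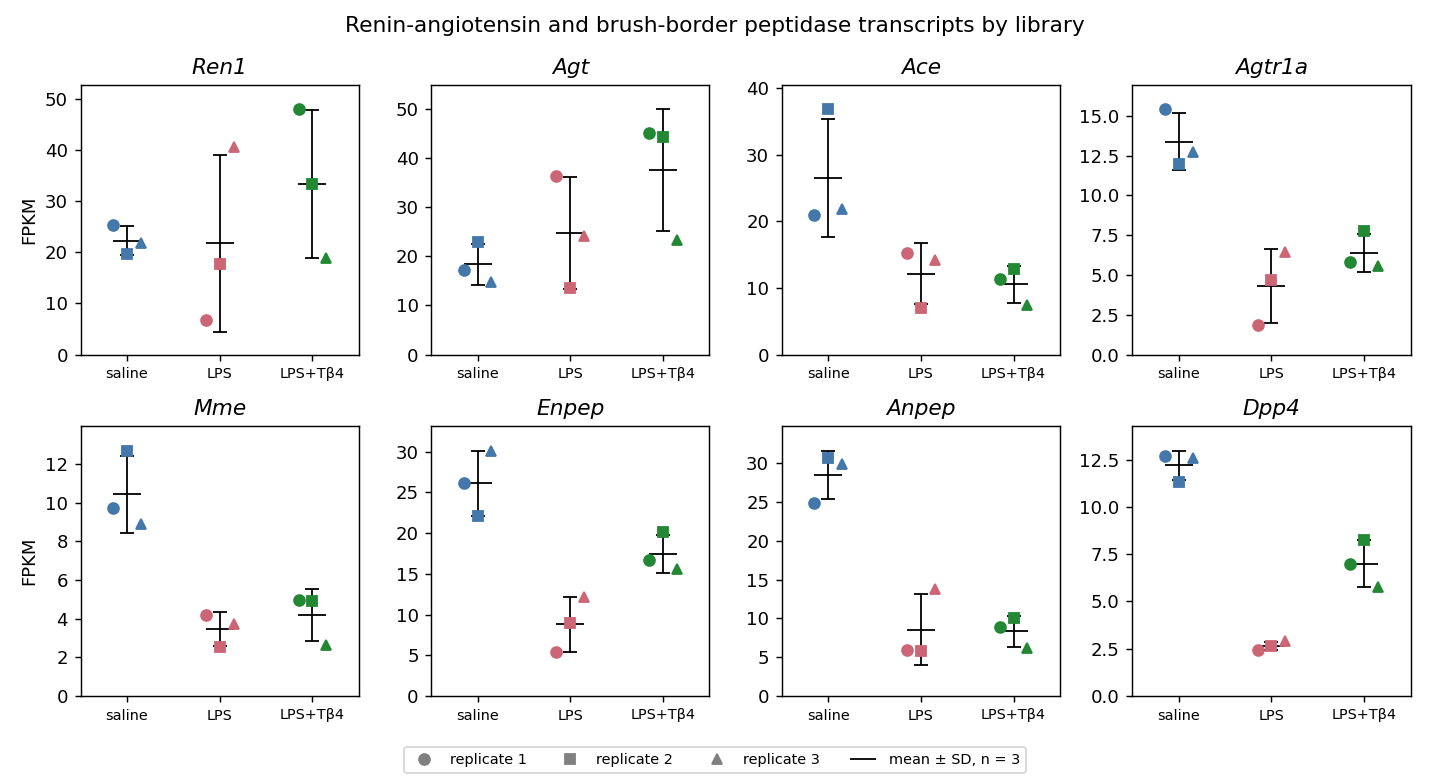
FPKM (y axis, from 0) of the 8 genes in each of the 9 libraries by group (x axis), with circles, squares and triangles for replicates 1, 2 and 3 and black bars for mean ± SD (n = 3). The 6 genes other than Ren1 and Agt lie lower in all LPS libraries than in any saline library, while Ren1 in LPS spreads from 6.82 to 40.6 FPKM.

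Kidneys under endotoxin were first set against saline kidneys. In edgeR, 6 of the 8 genes fell and none rose: Dpp4, Anpep, Mme, Agtr1a, Enpep and Ace, by 2.42-fold to 5.08-fold. Ren1 and Agt, which encode the enzyme that starts the cascade and its substrate, did not pass. Of all 15015 tested genes, 43.1% passed in either direction, 20.9% higher and 22.2% lower. The FPKM ranges of the groups did not overlap for 51.9% of tested genes (30.3% higher and 21.6% lower), and among the 8 they were lower without overlap for 6. The median change of the 8 was -1.71 on the log2 scale, against 0.02 over all tested genes.

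Ren1 measured 25.3, 19.7 and 21.8 FPKM in the saline libraries and 6.82, 17.8 and 40.6 FPKM in the LPS libraries. LPS replicate 1 lay below and LPS replicate 3 above every saline library, so the groups overlapped on both sides. The change was -0.12 ± 0.63 (log2 fold change ± SE, edgeR adjusted p = 0.89), and its size and sign moved with single libraries: 0.38 without LPS replicate 1, 0.05 without LPS replicate 2, 0.08 without saline replicate 1 and -1.02 without LPS replicate 3. The libraries low in urothelial transcripts held the 4 highest Ren1 values of the 9, namely 25.3 (saline replicate 1), 40.6 (LPS replicate 3), 47.9 and 33.3 FPKM (LPS+Tβ4 replicates 1 and 2). With the summed urothelial level as a covariate the change was -0.59 (adjusted p = 0.29). Whether tissue content accounts for the Ren1 values was not tested.

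**Figure D2:**
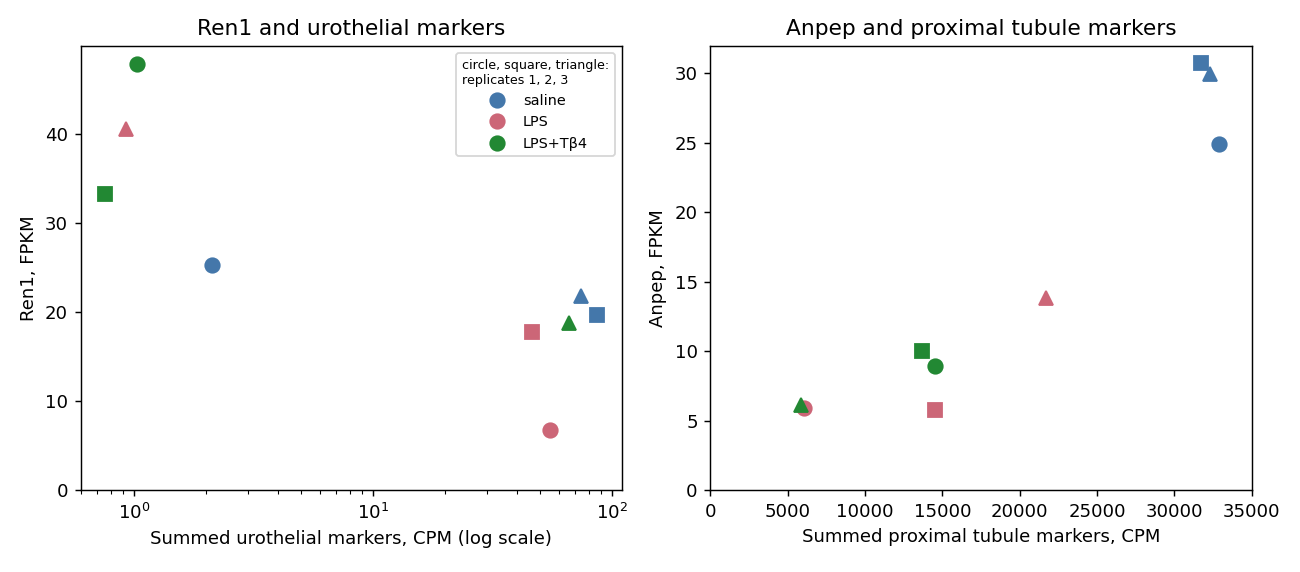
Left, Ren1 FPKM against the summed CPM of 5 urothelial markers (log scale), and right, Anpep FPKM against the summed CPM of 16 proximal tubule markers, with 1 point per library, colour for group and shape for replicate. The 4 libraries with at most 2.13 CPM of urothelial transcripts hold the 4 highest Ren1 values, from 25.3 to 47.9 FPKM, and the 3 saline libraries hold both the highest proximal tubule sums and the highest Anpep values.

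Agt measured 17.3, 23 and 14.8 FPKM in saline and 36.4, 13.6 and 24.1 FPKM in LPS, with LPS replicate 2 below and the other LPS libraries above all saline libraries. The change was 0.25 ± 0.36 (edgeR adjusted p = 0.62), and it stayed positive without any single library, from 0.04 to 0.57. Hepatocyte markers were uneven too: Alb, the liver's albumin gene, stood at 102 FPKM in saline replicate 1 and between 0.463 and 14.3 FPKM in the other 8 libraries, and without that library the Agt change was 0.30.

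Ace measured 21, 36.8 and 21.9 FPKM in saline and 15.3, 6.93 and 14.2 FPKM in LPS. The ranges did not overlap, and saline replicate 2 stood well above the other saline libraries. Ace fell by 1.28 on the log2 scale (SE 0.35, edgeR adjusted p = 0.017). Without saline replicate 2 the change was -1.04 and no longer passed (adjusted p = 0.061), as with replicate numbers as a block (-1.25, adjusted p = 0.052).

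Agtr1a, the angiotensin II receptor, measured 15.4, 12 and 12.7 FPKM in saline and 1.83, 4.71 and 6.45 FPKM in LPS. All LPS libraries lay below the saline libraries, replicate 1 far below. The fall was 3.32-fold (-1.73 ± 0.46, edgeR adjusted p = 0.016), and without saline replicate 1 it was -1.52 and did not pass (adjusted p = 0.055). Among mural and fibroblast markers, of cells that also express the receptor, 1 of 11 was lower and none higher (median -0.88). Their summed levels were 337 to 693 CPM in saline and 229 to 499 CPM in LPS.

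Dpp4, a serine peptidase that removes dipeptides from the ends of incretins and chemokines, showed the narrowest spread. Its saline libraries held 12.7, 11.3 and 12.6 FPKM and its LPS libraries 2.45, 2.63 and 2.88 FPKM, a 5.08-fold fall (-2.35 ± 0.22, edgeR adjusted p = 0.00016). The coefficient of variation was 6.18% in saline and 7.99% in LPS, the lowest of the 8 genes in both groups.

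Anpep measured 24.9, 30.7 and 29.9 FPKM in saline and 5.93, 5.8 and 13.8 FPKM in LPS. LPS replicate 3, with the most proximal tubule transcripts of its group, held more than its partners and still lay below all saline libraries. The fall was 3.62-fold (-1.85 ± 0.41, edgeR adjusted p = 0.0068), and without LPS replicate 3 it was larger (-2.49, adjusted p = 0.00067). Enpep, which converts angiotensin II to angiotensin III, measured 26.2, 22.1 and 30.1 FPKM in saline and 5.35, 8.94 and 12.1 FPKM in LPS, again without overlap (-1.69 ± 0.35, adjusted p = 0.0052). Mme, whose product degrades natriuretic peptides and kinins and forms the heptapeptide ligand of Mas1, measured 9.73, 12.7 and 8.92 FPKM in saline and 4.18, 2.51 and 3.7 FPKM in LPS (-1.75 ± 0.30, adjusted p = 0.0023).

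Together the 4 peptidases Mme, Enpep, Anpep and Dpp4 summed to 73.5, 76.8 and 81.5 FPKM in saline and to 17.9, 19.9 and 32.5 FPKM in LPS. Proximal tubule markers moved the same way, with 10 of 16 lower and none higher (median -2.42), and 5 of 8 podocyte markers were lower (summed 412 to 618 CPM in saline, 141 to 281 CPM in LPS). Their part in the falls was not tested. Among libraries rich in urothelial transcripts (2 saline against 2 LPS, with the spread pooled over all libraries) all 6 genes again passed, with Anpep at -2.53, Dpp4 at -2.39 and Ace at -1.60. In the urothelial-poor pair, saline replicate 1 against LPS replicate 3, all 6 changes were negative, with Dpp4 at -2.27, Anpep at -0.98 and Ace at -0.69. Each side of that pair is 1 library and the spread came from other libraries, so only the changes are given.

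The effect of adding thymosin β4 was read against the kidneys given LPS alone. Dpp4 alone among the 8 genes passed, 2.54-fold higher in LPS+Tβ4, and none was lower. Over all tested genes 6.83% passed in either direction, 4.5% higher and 2.33% lower. The FPKM ranges of Dpp4 and Enpep were higher without overlap, where 24.7% of all tested genes had ranges without overlap, 15.3% higher and 9.36% lower. The median change of the 8 was 0.49, against -0.01 over all tested genes.

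Dpp4 measured 6.99, 8.25 and 5.78 FPKM in LPS+Tβ4, against 2.45, 2.63 and 2.88 FPKM in LPS, so that every LPS+Tβ4 library held more than every LPS library and less than every saline library. The change was 1.35 ± 0.21 (edgeR adjusted p = 0.017). It was positive in all 22 alternatives, from 1.05 to 1.49. The call was lost when only the 6 libraries compared were fitted (adjusted p = 0.073), with replicate numbers as a block (0.07), and without LPS replicate 2 (0.064), LPS+Tβ4 replicate 1 (0.055) or LPS+Tβ4 replicate 2 (0.077). Within urothelial-poor and urothelial-rich libraries the change was 1.30 and 1.05, neither passing (adjusted p = 0.082 and 0.34), with 1 library on one side of each.

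Enpep measured 16.7, 20.1 and 15.6 FPKM in LPS+Tβ4, above the LPS libraries (5.35 to 12.1) and below the saline libraries (22.1 to 30.1). The change of 0.90 ± 0.34 did not pass (edgeR adjusted p = 0.15). Agtr1a measured 5.8, 7.75 and 5.58 FPKM, overlapping LPS replicate 3 (0.46 ± 0.45, adjusted p = 0.57). Mme measured 4.98, 4.92 and 2.63 FPKM, with replicate 3 inside the LPS range (0.26 ± 0.29, adjusted p = 0.64).

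Anpep measured 8.93, 10 and 6.13 FPKM in LPS+Tβ4, inside the LPS range of 5.8 to 13.8 (-0.10 ± 0.39, edgeR adjusted p = 0.91). Its sign depended on the libraries kept, with 0.53 without LPS replicate 3. Ace measured 11.4, 12.8 and 7.45 FPKM, also inside its LPS range (-0.22 ± 0.34, adjusted p = 0.74). Within each library the FPKM ratio of Anpep to Dpp4 was 1.96, 2.71 and 2.38 in saline, 2.42, 2.2 and 4.79 in LPS and 1.28, 1.21 and 1.06 in LPS+Tβ4. On counts, the log2 ratio was 1.32 lower in LPS+Tβ4 than in LPS (from 0.94 to -0.37) with no overlap, at an exact 2-sided permutation p of 0.1, the smallest that 3 against 3 libraries can give. Adjusted over the 6 ratio tests made, p was 0.2, and the pair was chosen after its values were seen.

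**Figure D3:**
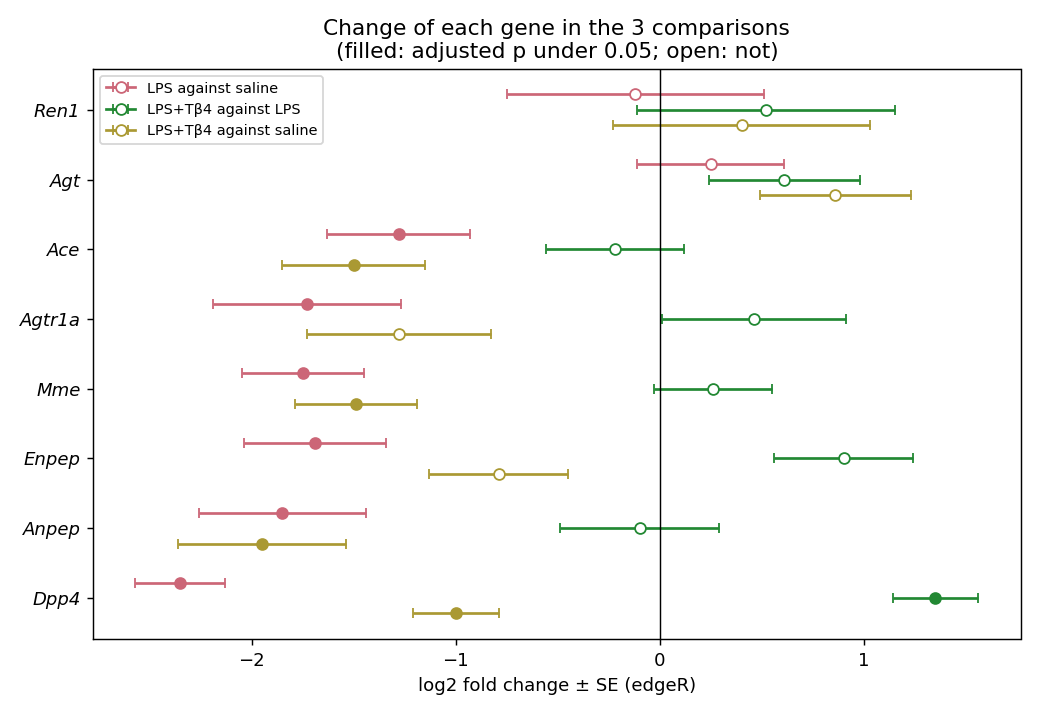
Log2 fold change ± SE from edgeR (x axis) of each of the 8 genes (y axis) for LPS against saline (red), LPS+Tβ4 against LPS (green) and LPS+Tβ4 against saline (ochre), filled where the adjusted p was under 0.05. Of the green points only Dpp4, at 1.35, is filled, while 6 red and 4 ochre points are filled, all of them to the left of 0.

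Ren1 measured 47.9, 33.3 and 18.8 FPKM in LPS+Tβ4 and Agt 45.1, 44.2 and 23.3 FPKM, in both genes with replicate 3 the lowest. Neither passed against LPS (0.52 ± 0.63, edgeR adjusted p = 0.66, for Ren1, and 0.61 ± 0.37, adjusted p = 0.33, for Agt). Within urothelial-poor libraries the Ren1 and Agt changes were -0.10 and 0.79, and within urothelial-rich libraries they were 0.43 and -0.17. Each class leaves 1 library on one side. Nervous system transcripts were higher in this group. Of 7 tested neuronal and myelin markers, 6 were higher than in LPS, with all 8 summing to 30.8 to 183 CPM in LPS and 490 to 594 CPM in LPS+Tβ4. Of 7 tested astrocyte markers, 2 were higher, among them Gfap, the astrocyte filament gene (0.16 to 0.868 FPKM in LPS and 5 to 6.09 FPKM in LPS+Tβ4). Astrocyte markers summed to 403 to 642, 367 to 707 and 515 to 682 CPM in saline, LPS and LPS+Tβ4. That sum holds Aldh1l1 and Aqp4, which kidney also expresses, and Mlc1 had no count in saline. The part of such transcripts in the Agt level was not tested.

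LPS+Tβ4 and saline were compared to see which of the genes remained apart. In edgeR 4 of 8 were lower and none higher, where 24.1% of all tested genes passed in either direction, 12.3% higher and 11.8% lower. Anpep was 3.87-fold lower (-1.95 ± 0.41, adjusted p = 0.0098), Ace 2.83-fold lower (-1.50 ± 0.35, adjusted p = 0.016), Mme 2.81-fold lower (-1.49 ± 0.30, adjusted p = 0.0085) and Dpp4 2-fold lower (SE 0.21 on the log2 scale, adjusted p = 0.01). For Ace the call was lost without saline replicate 2 (-1.26, adjusted p = 0.055). Agtr1a (-1.28 ± 0.45, adjusted p = 0.076) and Enpep (-0.79 ± 0.34, adjusted p = 0.13) did not pass, although their FPKM ranges lay below saline without overlap, as did those of 6 of the 8 genes. Over all tested genes 51.1% had ranges without overlap, 34.5% higher and 16.6% lower. Agtr1a and Enpep passed when only the 6 libraries compared were fitted (adjusted p = 0.0071 and 0.03). Ren1 was at 0.40 ± 0.63 (adjusted p = 0.69) and Agt at 0.86 ± 0.37 (adjusted p = 0.13). In FPKM the lowest LPS+Tβ4 value of Agt, 23.3, lay just above the highest saline value, 23, but in TMM-scaled CPM the values were 42.8 and 49.6 and overlapped. Without LPS+Tβ4 replicate 3 the Agt change was 1.18 (adjusted p = 0.042). The 3 comparisons share libraries, so their values are not independent.

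Other genes of the renin-angiotensin system mostly did not pass. Of 26 listed, 16 were tested, and in LPS against saline 2 were higher, 1 was lower and 13 did not pass (median -0.24). Among all tested genes 20.9% were higher and 22.2% lower. Bdkrb2, the kinin B2 receptor, rose from 0.374 ± 0.102 to 1.45 ± 0.394 FPKM (1.84 ± 0.37, edgeR adjusted p = 0.0046). Nln, the endopeptidase neurolysin, rose from 3.25 ± 0.165 to 6.79 ± 2.14 FPKM (0.93 ± 0.26, adjusted p = 0.02). That call was lost without saline replicate 2 and within urothelial-rich libraries (adjusted p = 0.065 in each). Prcp, a carboxypeptidase that removes the last residue of angiotensin II, fell from 8.08 ± 0.109 to 4.55 ± 1.26 FPKM (-0.96 ± 0.25, adjusted p = 0.013), a call lost without saline replicate 1 (0.053) or LPS replicate 2 (0.056). In the urothelial-poor pair, 1 library against 1, the Prcp change was -0.58.

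Atp6ap2, the prorenin receptor and proton pump accessory subunit, was at 40.2 ± 2.5, 32.1 ± 6.85 and 39.6 ± 3.61 FPKM in the 3 groups and did not pass (LPS against saline -0.46 ± 0.23, edgeR adjusted p = 0.14). Lnpep, the aminopeptidase that binds angiotensin IV, was at 0.07 ± 0.21 (adjusted p = 0.8).

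The other angiotensin receptors fell below the filter of a mean of 0.5 FPKM over the 9 libraries and were not tested. Mas1, the receptor for the heptapeptide that Mme can form, held 381 counts over the saline libraries, 44 over the LPS libraries and 190 over the LPS+Tβ4 libraries. Its FPKM values were 0.535, 0.925 and 0.723 in saline and 0.166, 0.0164 and 0.0631 in LPS, without overlap. Agtr2 held 39, 0 and 17 counts, and Agtr1b, a close copy of Agtr1a, 26, 0 and 3 counts. Of the 26 saline counts of Agtr1b, 22 came from saline replicate 2, and saline replicate 1 held 0. A count of 0 allows up to 3 counts, from counting error alone. In LPS+Tβ4 against LPS, 0 of the 16 tested genes passed in edgeR and in limma, 2 had an unadjusted p under 0.05, and 2 passed in DESeq2. The share of all tested genes that passed in edgeR was 6.83%.

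Brush-border genes outside the 8 were mostly lower. Of 24 listed, 20 were tested, and 12 were lower in LPS, none higher and 8 not past the test (median -1.23). Among all tested genes 22.2% were lower and 20.9% higher. Pdzk1, the scaffold that anchors transporters in the microvilli, fell from 255 ± 17.4 to 18.8 ± 6.12 FPKM (-3.89 ± 0.39, edgeR adjusted p = 0.00022). Mep1b, the beta subunit of the metalloprotease meprin, fell from 41.7 ± 22.2 to 4.19 ± 0.568 FPKM, and Acy3, a deacylase of the proximal tubule, from 566 ± 87.4 to 99.4 ± 28.7 FPKM. Vil1 and Ush1c, which encode the microvillar actin bundler villin and the tip-link scaffold harmonin, fell by 1.24 and 1.09 on the log2 scale.

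Against LPS alone, 2 of these 20 genes were higher and 1 was lower, where 4.5% of all tested genes were higher and 2.33% lower. Pdzk1 was 66.6, 109 and 58.6 FPKM in LPS+Tβ4 and 13.3, 17.6 and 25.4 FPKM in LPS (1.99 ± 0.36, edgeR adjusted p = 0.023). Vil1 was 51, 58.8 and 35.3 FPKM and 29.4, 15.1 and 22 FPKM (1.11 ± 0.26, adjusted p = 0.042). Xpnpep2, the membrane aminopeptidase P that inactivates kinins, went the other way, with 0.341, 0.507 and 1.06 FPKM in LPS and 0.137, 0.118 and 0.128 FPKM in LPS+Tβ4 (-2.41 ± 0.45, adjusted p = 0.024), after 2.14 ± 0.0464 FPKM in saline. Without LPS replicate 3 the Xpnpep2 change was -1.74 (adjusted p = 0.037). All 3 calls were lost when only the 6 libraries compared were fitted (adjusted p = 0.091, 0.14 and 0.11) and without LPS replicate 2 or without LPS+Tβ4 replicate 1 or 2. That of Vil1 was also lost without any 1 of the saline libraries or LPS replicate 3, and that of Xpnpep2 without saline replicate 3.

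**Figure D4:**
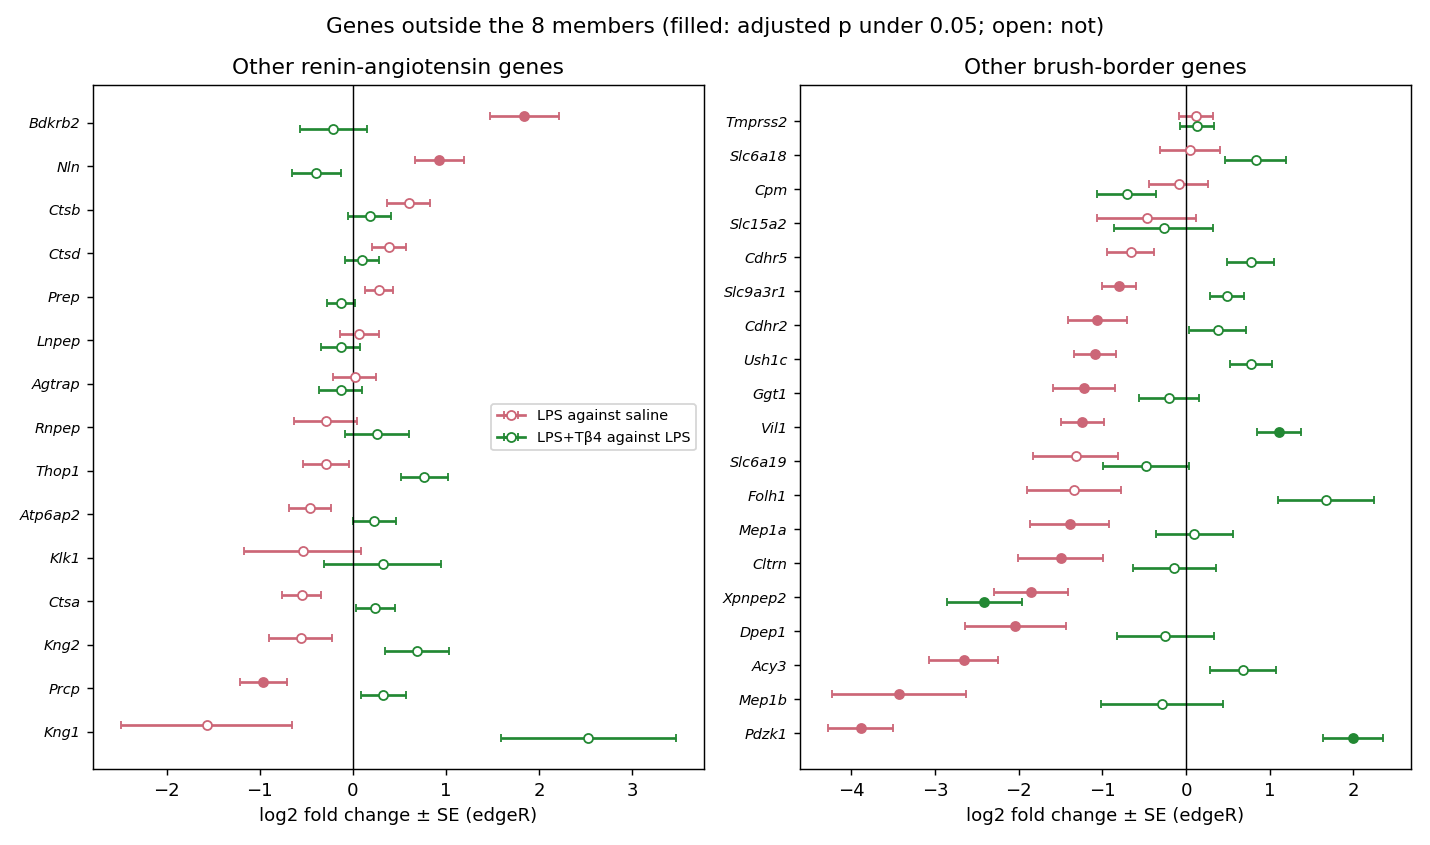
Log2 fold change ± SE from edgeR (x axis) of the tested genes (y axis) of the renin-angiotensin system (left) and of the brush border (right) outside the 8, for LPS against saline (red) and LPS+Tβ4 against LPS (green), filled where the adjusted p was under 0.05. One tested gene of each list, which did not pass, is not drawn. On the right 12 red points are filled, all below 0, against 3 on the left, and 3 green points are filled, those of Pdzk1, Vil1 and Xpnpep2.

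Genes of the renin-secreting juxtaglomerular cells and of the macula densa, which signals to them, went both ways. Of 18 listed, 12 were tested, and 4 were higher and 3 lower in LPS. The shares over all tested genes were 20.9% higher and 22.2% lower. Ptgs2, the cyclooxygenase that drives renin release from the macula densa, was 0.0929, 0.165 and 0.362 FPKM in saline and 0.576, 7.14 and 1.74 FPKM in LPS (3.83 ± 0.93, edgeR adjusted p = 0.011). Without LPS replicate 2 the Ptgs2 change was 2.43 and without saline replicate 3 it was 4.55, both past the test. Within urothelial-rich libraries the Ptgs2 change was 3.78 and did not pass (adjusted p = 0.061). In the urothelial-poor pair, 1 library against 1, it was 4.06. Of the listed genes under the FPKM filter, Nos1, Pappa2 and Robo2 were lower in LPS without overlap, and Adrb1, Tbx18 and Foxd1 overlapped. Counts in saline and LPS were 94, 92 and 123 against 50, 18 and 6 for Nos1. For Pappa2 they were 64, 86 and 60 against 0, 8 and 15, and for Robo2 833, 370 and 481 against 209, 62 and 152. In LPS+Tβ4, Nos1 and Robo2 lay above LPS without overlap. These genes were not tested and were named after their values were seen. The prostaglandin E receptor Ptger4 rose by 0.78 (adjusted p = 0.031), a call lost in 9 of 21 alternatives, and Nr4a1, an orphan nuclear receptor, by 1.64 (adjusted p = 0.0086, and 0.058 within urothelial-rich libraries). Gja5, which encodes connexin 40 of juxtaglomerular and endothelial cells, fell by 0.92 on the log2 scale in LPS (adjusted p = 0.0073). Its change in the urothelial-poor pair, 1 library against 1, was -0.81. Akr1b7, an aldo-keto reductase of this list, was at 1.75 ± 0.459, 2.91 ± 1.55 and 3.66 ± 1.65 FPKM and did not pass (0.61 ± 0.58, adjusted p = 0.42). It is outside the naming rule and was chosen after its values were seen. Gja5 in LPS+Tβ4 kidneys was higher than in LPS kidneys by 0.84 (adjusted p = 0.046) and Adcy5, an adenylyl cyclase, by 1.82 (adjusted p = 0.038). Those calls were lost in 18 and 13 of 21 alternatives, among them leaving out any 1 of the saline or LPS+Tβ4 libraries, or LPS replicate 2 or 3. Adcy5 was also lower in LPS than in saline, with overlapping FPKM ranges (-1.18, edgeR adjusted p = 0.042). In LPS+Tβ4 against saline neither Gja5 (-0.08, edgeR adjusted p = 0.82) nor Adcy5 (0.64, adjusted p = 0.27) passed.

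Across the 9 libraries the members fell into patterns that are given here without a test, since the libraries share their groups and tissue content. Pearson's r of log2 CPM was 0.96 between Enpep and Agtr1a, 0.95 between Enpep and Dpp4 and 0.95 between Ace and Mme, but 0.57 between Ace and Enpep. Agt had r between -0.27 and 0.23 with each of the other members. The genes most like Dpp4 were Myo15b, Mfsd4b5 and Slc26a1 (r = 0.996, 0.996 and 0.995), those like Enpep included Khk and Dao (0.988 and 0.986), and those most like Mme were Acy3, Acox2 and Akr1d1 (0.993, 0.986 and 0.984). Anpep was closest to Usp8, Acat1 and Aldh6a1 (0.995, 0.994 and 0.992), Ace to Bdh1, Gpt and Sptlc1 (0.986, 0.983 and 0.966), and Agtr1a to Sdc2, Dleu7 and Slc26a11 (0.991, 0.99 and 0.989). For Ren1 the closest were Gucd1, Adtrp and Ndrg1 (0.976, 0.951 and 0.941), and for Agt Eprn, Pdia4 and Slc6a18 (0.969, 0.952 and 0.949).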

How the data were processed

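The authors deposited raw counts and FPKM values for 34310 genes in 9 kidney libraries. The submitters' processing notes name GRCm38 as the build and list edgeR, DESeq2, StringTie 2.1.6, HISAT2 2.2.1 and cutadapt 1.9 without roles. Which program counted reads, and against which annotation, is not given in the sources used here. Libraries were stranded and poly(A)-selected, per the labels' protocols.

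Counts were tested in edgeR 4.0.16 (R 4.3.3): one quasi-likelihood model held all 9 libraries and the 3 group means, with TMM factors. Genes under a mean of 0.5 FPKM were dropped, p-values were adjusted by Benjamini-Hochberg over the remaining 15015, and 0.05 was the threshold. The SE is the change divided by the square root of F. FPKM is not TMM-scaled (factors 0.875 to 1.16). On simulated data with 200 changed genes, 51.6%, 59.3% and 71.6% of 4-fold and 7.25%, 2.9% and 9.09% of 2-fold changes were recovered (LPS against saline, LPS+Tβ4 against LPS, LPS+Tβ4 against saline). In the data a larger share of the 15015 genes passed, 43.1%, 6.83% and 24.1%. The adjusted threshold was therefore stricter in the simulation, and its rates do not give the power of the reported tests.

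The members and lists were chosen with earlier results of these data known. Besides members, genes were named by the smallest adjusted p in each list (up to 5 and 3 in the first and second comparison, Kctd1 left out), with Atp6ap2, Agtr1b, Agtr2, Mas1 and Lnpep always, and the 3 most correlated genes per member. A few genes that the rule names are not reported here, but the list counts include them. Libraries above 10 CPM of urothelial markers were called rich, a split chosen after seeing the data. Alternatives covered filters, scaling, DESeq2 1.42.0, limma 3.58.1 on log2(FPKM + 1) and log2(FPKM + 0.1), covariates, and each library left out. Same-numbered libraries correlated at -0.66 to 0.32 in their deviations from group means, so the numbers were not used as pairs. Figures used matplotlib 3.10.9 in Python 3.11.15.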

Additional observations from a re-analysis of the deposited data

How the results depend on the processing

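A filter at a mean FPKM of at least 5 tests fewer genes than 15015, and no filter tests more. Counts of genes called under these filters, in all 3 comparisons, therefore do not by themselves show lost or gained calls. In LPS against saline the 6 falls kept their direction in all alternatives. At a mean FPKM of at least 5 all 6 passed in edgeR, with adjusted p from 7.5e-05 (Dpp4) to 0.013 (Ace). As reported, those of Dpp4 and Ace were 0.00016 and 0.017. The members called ranged from 5 to 6 without 1 library and were 3 within urothelial-poor libraries, where each side is 1 library and the spread is that of other libraries. Genes called over the table were 6473, but 3754 at a mean FPKM of at least 5, 3183 within urothelial-poor libraries and 4884 to 6903 without 1 library.

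In LPS+Tβ4 against LPS the 1 member called was lost (0) with the 6 libraries alone, with the replicate block and within either urothelial class, and ranged from 0 to 1 without 1 library. The 1025 genes called became 2442 by DESeq2, 638 at a mean FPKM of at least 5, 647 with no filter, 3 with the 6 libraries alone, 5 with the replicate block, 6 and 0 within urothelial-poor and urothelial-rich libraries, and 68 to 2672 without 1 library. Beside that 0 in edgeR, 1535 genes had an unadjusted p under 0.05, and the class leaves 2 LPS libraries against 1. In LPS+Tβ4 against saline the 4 members called were 2 within urothelial-poor libraries and 3 to 6 without 1 library, and the 3617 genes 2268 at a mean FPKM of at least 5, 1373 and 2026 within urothelial-poor and urothelial-rich libraries, and 2119 to 4544 without 1 library.

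Signs turned for changes that did not pass. In LPS against saline, Ren1 was 0.38, 0.05 and 0.08 without LPS replicate 1, LPS replicate 2 and saline replicate 1, and 0.55 within urothelial-poor libraries, with -1.02 the lowest without 1 library. In LPS+Tβ4 against LPS, Anpep was 0.07 and 0.05 by limma on log2(FPKM + 0.1) and log2(FPKM + 1), 0.01 with the replicate block, 0.53 without LPS replicate 3 and 0.10 without LPS+Tβ4 replicate 3, with -0.38 the lowest without 1 library. In the same comparison Ren1 and Agtr1a were -0.10 and -0.04 within urothelial-poor libraries, and Agt and Mme -0.17 and -0.44 within urothelial-rich ones. In LPS+Tβ4 against saline, Ren1 was -0.32 with the urothelial covariate, -0.01 without LPS+Tβ4 replicate 1 and -0.44 within urothelial-rich libraries, with 0.75 the highest without 1 library. The cause was not tested. The correlations of same-numbered libraries (median -0.3) lay below those of other pairs (median 0.04), and the replicate block therefore reflects a shared number only. Members held at least 322 counts in each library, so depth did not limit them.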

Other observations

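One transcript at the edge of the pathway appeared in a single library: Mrgprd, a receptor for angiotensin-related heptapeptides, had 156 counts (0.786 FPKM) in LPS replicate 1 and none in the other 8 libraries. It was named after its values were seen. Of the listed mast cell and neutrophil proteases, Ctsg held at most 23 counts per group, Mcpt4 4 and Cpa3 8. Cma1 and Cma2, also listed, were not found by symbol among the deposited genes.

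Klk1, tissue kallikrein of the connecting tubule, which releases kinins, was also named after its values were seen. It was 172 FPKM in LPS replicate 1 against 990 and 1110 FPKM in the other LPS libraries, and 797 to 1220 FPKM in saline (edgeR adjusted p = 0.52). That library also held the lowest Ren1 (6.82 FPKM), Agtr1a (1.83 FPKM), Enpep (5.35 FPKM) and Dpp4 (2.45 FPKM) values of the 9. Its Agt (36.4 FPKM), Ace (15.3 FPKM) and Mme (4.18 FPKM) values were the highest of its group, and its Anpep value (5.93 FPKM) lay between its partners.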
